A study of Caenorhabditis elegans with 24 samples.

Results

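The mitochondrial ribosomal protein genes of *C. elegans* were taken as all genes whose name starts with mrps- or mrpl-, which gave 70 of the 14652 genes with a value in this RNA-seq series. Of these, 29 encode proteins of the small subunit (mrps-) and 41 proteins of the large subunit (mrpl-). All 70 had a value in both deposited tables, and all 70 passed the filter on low values. The series holds 24 libraries, 3 in each of 8 groups, in tables of 12 libraries that were normalized separately. In the first table, enriched germline nuclei of *daf-2(e1370)* animals and of wild-type animals were set beside whole worm lysates of *daf-2(e1370)* and wild-type animals. In the second table, whole *daf-2(e1370)* animals were kept on 1 mM auxin for 16 h from the young-adult stage or for 88 h from egg lay, each with a control group on 0.25% EtOH. Every strain, the wild type included, carries a degron-tagged HSF-1 and TIR1 driven by the *sun-1* promoter, so that auxin removes HSF-1 protein from the germline. The wild-type strain also carries *unc-119(ed3)*, and each genotype is represented by 1 strain. The reduced insulin/IGF-1 receptor activity of *daf-2(e1370)* acts in the whole animal. Nuclei came from worms lightly fixed in dimethylformamide. HSF-1 was removed as protein, and therefore its mRNA does not check the labels.

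The mitochondrial ribosome translates the few proteins that the mitochondrial genome encodes, all of them subunits of the respiratory chain and ATP synthase. Its RNAs are made inside the organelle, whereas its proteins are encoded in the nucleus, translated in the cytosol and imported. The small subunit reads the mRNA and the large subunit joins the amino acids. In worms, knockdown of *mrps-5* is known to activate the mitochondrial unfolded protein response and to extend lifespan.

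The members were spread over the autosomes, with 15 on chromosome I, 12 on II, 22 on III, 11 on IV and 10 on V. None of the 70 lay on the X chromosome, which holds 13.28% of the protein-coding genes listed, whereas chromosome III held 31.43% of the members and 15.87% of all listed genes. They were short genes, with a median exonic length of 755 bp against 1377 bp for all listed protein-coding genes. For 27 of the 70 (38.57%), the nearest upstream protein-coding gene lay on the same strand and ended within 500 bp, the arrangement typical of worm operons, compared with 19.79% of all listed genes. Among these neighbors was *dap-3*, which encodes another protein of the small subunit and ends 105 bp before *mrps-22*. Another was *mrps-2*, which ends 105 bp before *mrpl-4*. Exons of 20 members (28.57%) overlapped exons of another gene, against 32.04% of all listed genes. The overlap was largest for *mrpl-42*, at 59.3% of its exonic length. The counting options in the sources used here name no strand setting, so reads of a member and of a gene overlapping it cannot be told apart. *mrps-23* lies inside *prp-40*. The similarly named *mrps-18.C* and *mrps-18C* are separate genes, on chromosomes II and III.

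Reads per library, estimated from the spacing of the lowest values, were 13.9 to 19.3 M in the nuclei, 22 to 28.8 M in the worms beside them and 20.9 to 38 M in the depletion table. Shared reads had been counted as fractions, so these depths are estimates. CPM are read counts scaled to a library size that the normalization had adjusted, so their sum differed between libraries. It was 1236882 to 2688300 in nuclei and 424276 to 645863 in worms, and the reported ratios of nuclei to worms rest on this scaling. Nuclear-encoded rRNA took 37.7% to 72.8% of the summed CPM in nuclei and 9.3% to 35% in worms. In nuclei, 1 read was worth 0.0888 to 0.157 CPM, and in worms 0.0152 to 0.0294 CPM. Of the CPM outside nuclear-encoded rRNA, the members took 0.299% to 0.36% in nuclei and 0.388% to 0.62% in worms. Each nuclei library had 1424 to 2815 genes at 0 reads, whereas each worm library had 138 to 248. The preparation was checked against marker genes. The summed level of 8 hypodermis and cuticle genes was 567 to 697 CPM in *daf-2(e1370)* nuclei and 3971 to 4425 CPM in *daf-2(e1370)* worms, and 395 to 501 CPM in wild-type nuclei and 1499 to 2725 CPM in wild-type worms. The sums of the 10 intestine and yolk genes and of the 10 body wall muscle genes were likewise lower in every nuclei library than in the worms of its genotype. The sum of the 13 germline genes overlapped between nuclei and worms, at 955 to 1355 CPM in *daf-2(e1370)* nuclei against 912 to 1469 CPM in *daf-2(e1370)* worms, and at 884 to 1112 CPM in wild-type nuclei against 845 to 1158 CPM in wild-type worms. The sum of the 14 sperm genes was higher in nuclei, at 1272 to 1446 CPM in *daf-2(e1370)* nuclei against 442 to 637 CPM in *daf-2(e1370)* worms, and at 2023 to 3449 CPM in wild-type nuclei against 840 to 1470 CPM in wild-type worms. Of these genes, 1 intestine gene was at 0 reads in all *daf-2(e1370)* nuclei and 1 sperm gene in all wild-type nuclei. The part of these markers in the member results was not tested. In bulk samples, fewer cells of a type and less RNA per cell cannot be told apart.

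In wild-type worms, levels per kilobase of exon covered a wide range around a median of 25.7 CPM per kb. In the small subunit, *mrps-22* was the highest at 166 CPM per kb and *mrps-31* the lowest at 5.93 CPM per kb. In the large subunit, *mrpl-23*, whose bacterial counterpart sits at the exit of the peptide tunnel, was the highest at 115.4 CPM per kb, and *mrpl-42* the lowest at 1.96 CPM per kb. *mrpl-42* was the lowest of the 70 in every group except *daf-2(e1370)* nuclei, where *mrps-31* was lower. In the 16 h controls, *mrpl-42* had 5.34 CPM per kb, and *mrpl-11*, which belongs to the stalk base where translation factors bind, was the highest at 150 CPM per kb. Levels of the 2 tables are set side by side only, since their scaling differs.

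**Figure D1:**
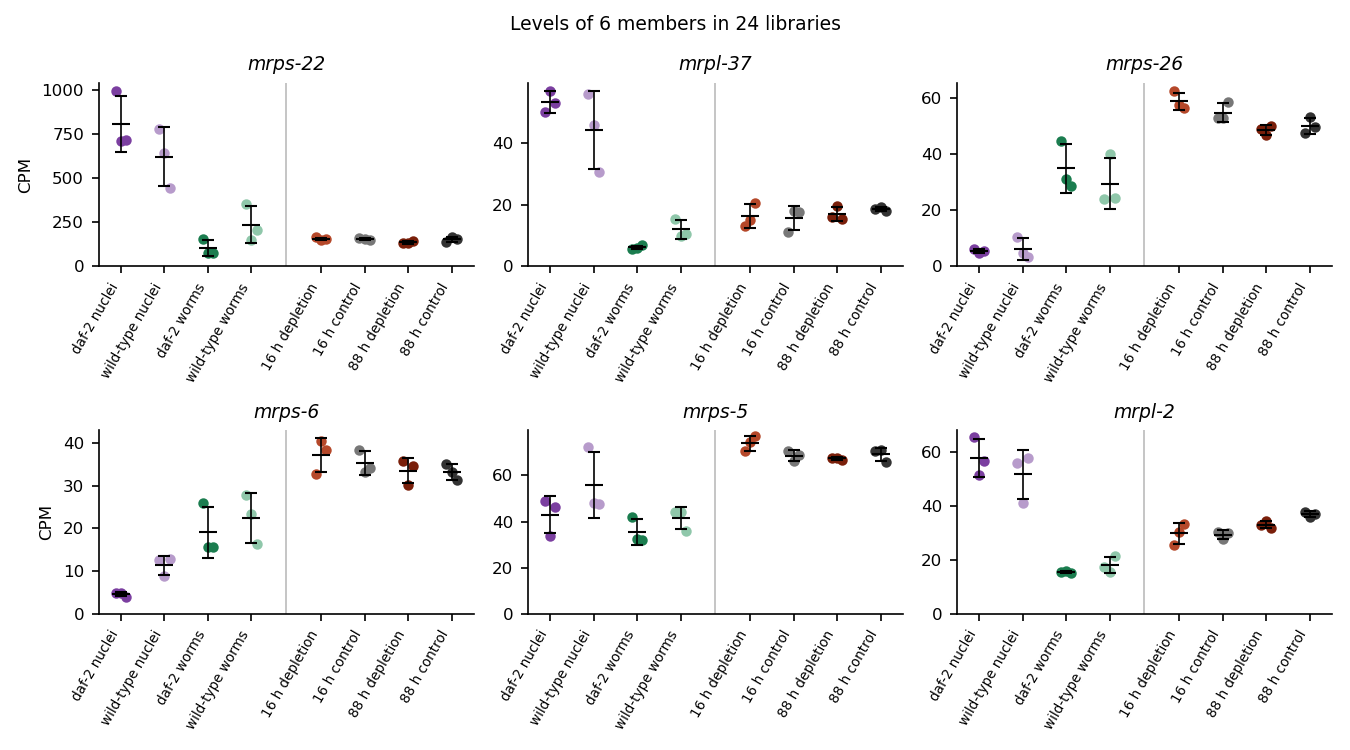
CPM of 6 members (vertical axes, each starting at 0) in all 24 libraries: points are libraries, horizontal ticks and bars are the mean ± SD of 3 libraries, and the grey line parts the tables, which were normalized separately. *mrps-22*, *mrpl-37* and *mrpl-2* sat higher in nuclei than in worms, *mrps-26* and *mrps-6* lower. For each gene the 12 libraries right of the line spread less than those left of it. Even so, *mrpl-37* ran from 11.2 CPM in a 16 h control to 20.6 CPM in a 16 h depletion library, and *mrpl-2* was higher in 88 h than in 16 h controls.

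The comparison of *daf-2(e1370)* with wild-type nuclei asks how reduced insulin/IGF-1 signaling changes RNA in the germline. No member passed the threshold of an adjusted p of 0.05 in either direction (limma, two-sided, Benjamini-Hochberg over all 13613 genes tested), where 3.85% of all genes did. The calls over all genes, 183 higher and 341 lower, became 0 without *daf-2(e1370)* nuclei replicate 1, 2 or 3, with 2451, 2568 and 2997 genes at an unadjusted p under 0.05 (limma), and were 32 to 55 higher and 173 to 250 lower without 1 of the wild-type libraries. At an unadjusted p under 0.05 (limma) there were 7 of 70 members and 2847 of all 13613 genes. The median log2 fold change over the members was 0.06, with 36 of 70 above 0, beside a median of -0.15 over all genes. The large subunit had a median of 0.23 and the small subunit one of -0.11. Of the marker sums, that of the sperm genes was lower in *daf-2(e1370)* nuclei than in wild-type nuclei, without overlap. The hypodermis and cuticle sum was higher, also without overlap, and the other marker sums overlapped. The part of these in the results was not tested.

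The member with the smallest p was *mrps-6*, which encodes a protein of the small subunit. The study itself reports *mrps-6* as significantly lower in *daf-2(e1370)* germline nuclei, as the only mitochondrial ribosomal protein gene among its translation genes. Its call came from the likelihood ratio test of edgeR, whereas limma was used here, and the part of this in the result was not tested. *mrps-6* had 4.84, 4.77 and 3.99 CPM in *daf-2(e1370)* nuclei and 12.5, 8.72 and 12.7 CPM in wild-type nuclei. The 3 values of *daf-2(e1370)* lay below all 3 of the wild type, with a log2 fold change of -1.30 ± 0.38 (SE) and an adjusted p of 0.12 (limma). With all 12 libraries of the table in the fit, its adjusted p was 0.0268. *mrpl-20*, a large-subunit gene, had 61.9, 34.5 and 52.1 CPM in *daf-2(e1370)* nuclei and 32.7, 23.9 and 20.8 CPM in wild-type nuclei. Its groups did not overlap either, and its log2 fold change was 0.92 ± 0.29 (adjusted p = 0.14, limma). *mrps-5* had 48.9, 33.9 and 46.2 CPM in *daf-2(e1370)* nuclei and 72.6, 47.9 and 47.4 CPM in wild-type nuclei, with groups that overlapped (log2 fold change -0.37 ± 0.25, adjusted p = 0.438, limma).

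Other genes of mitochondrial translation likewise had no call in nuclei. The list of translation factors and ribosome partners also holds genes of mitochondrial DNA upkeep and transcription, such as *hmg-5*, *mtss-1* and *rpom-1*. Of the translation factors and ribosome partners, 0 of 12 tested passed and the median was 0.13, and of the mitochondrial aminoacyl-tRNA synthetases, 0 of 10 passed with a median of -0.17. Of the 82 protein genes of the cytosolic ribosome, 4 were lower, where 2.5% of all genes were, and 0 of 82 had a positive log2 fold change, with a median of -0.83. These calls, like those over all genes, were lost without any 1 of the *daf-2(e1370)* nuclei libraries. Of the 4, *rpl-7A* had 156, 162 and 149 CPM in *daf-2(e1370)* nuclei against 315, 279 and 318 CPM in wild-type nuclei (log2 fold change -0.96 ± 0.14, adjusted p = 0.0314, limma). *rps-6*, the cytosolic gene whose name resembles *mrps-6*, had a log2 fold change of -1.05 ± 0.17 (adjusted p = 0.0323, limma), and *rpl-3* one of -0.97 ± 0.16 (adjusted p = 0.0332, limma).

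In whole worms, 1 of the 70 members passed, and it was lower in *daf-2(e1370)*. Of all genes, 11.2% (1526) were lower, a number that ranged from 491 without wild-type worm replicate 1 to 2127 without wild-type worm replicate 2. The median of the members was -0.07, beside -0.02 over all genes, and 40 of 70 were below 0. The member was *mrps-22*, a small-subunit gene of chromosome II (10582618 to 10584236, WBcel235), which has the highest CPM of the members in worms of both genotypes and is named here with its values known. It had 156, 76.0 and 76.8 CPM in *daf-2(e1370)* worms and 353, 152 and 207 CPM in wild-type worms. The highest *daf-2(e1370)* library lay above the lowest wild-type one, so the groups overlapped. The log2 fold change was -1.20 ± 0.38 with an adjusted p of 0.0492 (limma). Of the 6 fits that each left out 1 library, the call was lost in 4, with adjusted p from 0.106 without wild-type replicate 3 to 0.182 without wild-type replicate 1. The number of members lower ranged from 0 to 4 over the same 6 fits, the 4 being without *daf-2(e1370)* replicate 1. In that library the members as a whole were high, with a sum of 2463 CPM, against 1545 and 1457 CPM in replicates 2 and 3. Their median there was 29.1 CPM, against 17.5 and 16.3 CPM. In wild-type worms the sums were 2451, 2006 and 1766 CPM. The part of this in the results was not tested.

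The next smallest adjusted p, which missed the threshold, was that of *mrpl-37*, a large-subunit gene found in mitochondrial and not in bacterial ribosomes. It had 5.66, 5.86 and 6.78 CPM in *daf-2(e1370)* worms and 15.3, 9.91 and 10.5 CPM in wild-type worms. These groups did not overlap (log2 fold change -0.94 ± 0.30, adjusted p = 0.0535, limma). *mrps-6* had 26, 15.5 and 15.5 CPM in *daf-2(e1370)* worms and 27.9, 23.3 and 16.2 CPM in wild-type worms (log2 fold change -0.25 ± 0.32, adjusted p = 0.587, limma). *mrps-5* had 41.8, 32.2 and 32.1 CPM in *daf-2(e1370)* worms and 44.2, 44.2 and 36 CPM in wild-type worms (log2 fold change -0.23 ± 0.25, adjusted p = 0.519, limma). For both genes the groups overlapped.

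Some tissue markers differed between the genotypes in whole worms, as in nuclei. The intestine and yolk genes summed to 3440 to 7041 CPM in *daf-2(e1370)* worms against 1355 to 2672 CPM in wild-type worms, and the hypodermis and cuticle sums given above did not overlap either. The sperm sums given above were lower in *daf-2(e1370)* worms, again without overlap, whereas the germline and body wall muscle sums overlapped. The part of these in the results was not tested. The rRNAs of the mitochondrial ribosome were among the calls in whole worms. Of the 14 transcripts of the mitochondrial genome, 5 were lower in *daf-2(e1370)* worms and 0 of 14 had a positive log2 fold change, with a median of -0.92. The small-subunit rRNA (s-rRNA) had 147, 89.4 and 87.8 CPM in *daf-2(e1370)* worms against 488, 204 and 437 CPM in wild-type worms (log2 fold change -1.75 ± 0.37, adjusted p = 0.0116, limma). The large-subunit rRNA (l-rRNA) had a log2 fold change of -1.27 ± 0.33 (adjusted p = 0.0252, limma), and *ND4L*, which encodes a subunit of complex I, one of -1.71 ± 0.49 (adjusted p = 0.0352, limma). The libraries were polyA-enriched, which limits what these levels say of rRNA. The nuclear genes of the respiratory chain had 3 of 35 lower and none higher, with a median of -0.40. Of all genes, 11.2% were lower in *daf-2(e1370)* worms, a share that neither this list nor the next reached. Of the mitochondrial unfolded protein response genes, 1 of 14 was lower: *spg-7*, which encodes a mitochondrial protease, at a log2 fold change of -1.04 ± 0.31 (adjusted p = 0.0399, limma). Nuclear-encoded rRNA took 9.3% to 13.3% of the summed CPM in *daf-2(e1370)* worms and 15.7% to 35% in wild-type worms, without overlap. The rRNA share therefore differed with the genotype. Wild-type worm replicate 2 had the 15.7%, against 29.9% and 35% in the other wild-type worms. Its s-rRNA and *mrps-22* were the lowest of the 3 wild-type worm libraries. The part of these rRNA shares in the results was not tested.

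The difference between the *daf-2(e1370)* effect in nuclei and in worms was tested directly, and no member passed, with 0.103% of all genes past. An unadjusted p under 0.05 (limma) was reached by 6 of 70 members and by 1666 of all 13613 genes. The median difference was 0.18, and 42 of 70 were above 0. *mrps-22* had the smallest p, with a difference of 1.60 ± 0.50 (adjusted p = 0.185, limma), as its log2 fold change was 0.40 in nuclei and -1.20 in worms. *mrpl-37* had a difference of 1.26 ± 0.41 (adjusted p = 0.201, limma) and *mrps-6* one of -1.05 ± 0.49 (adjusted p = 0.409, limma). Across the 70 members, the effects in nuclei and in worms had a Pearson correlation of 0.00 and a Spearman correlation of 0.11, beside 0.50 and 0.45 across all 13613 genes. The nuclei and worm libraries differ, but genes are not independent replicates, and no p is given.

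**Figure D2:**
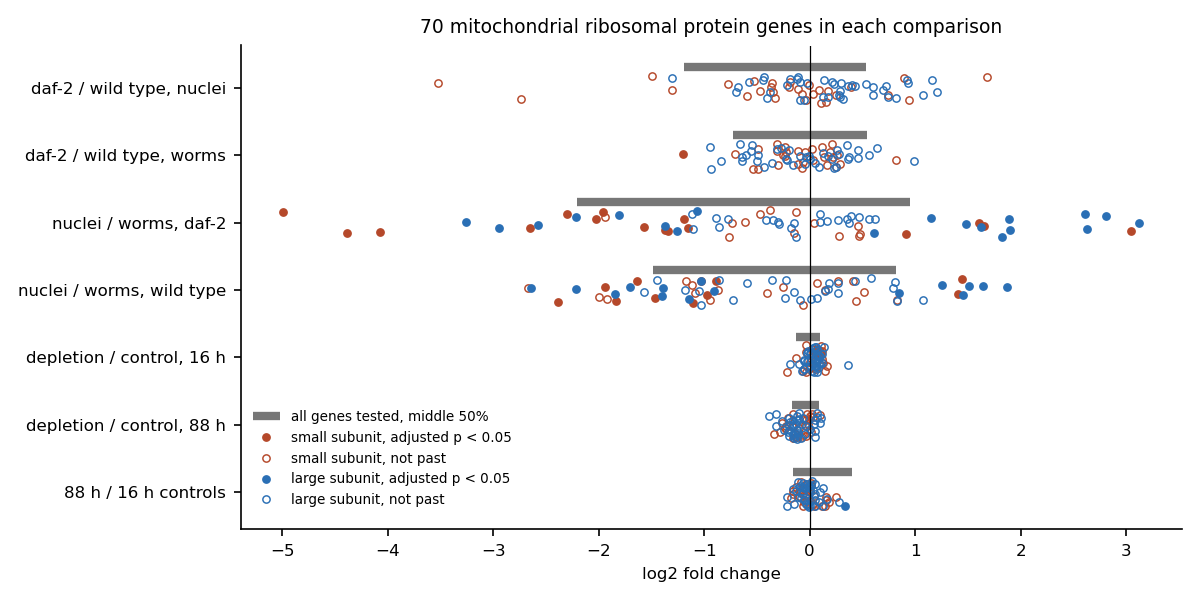
log2 fold changes (horizontal axis) of the 70 members in 7 comparisons; filled points have an adjusted p below 0.05, and grey bars span the middle 50% of all genes tested. Filled points were many in both comparisons of nuclei with worms, whereas *mrps-22* was the only one for *daf-2(e1370)* worms and *mrpl-2* the only one for the controls.

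The members moved most between nuclei and worms. In *daf-2(e1370)*, 15 of 70 (21.4%) were higher in nuclei, against 21.3% of all genes, and 20 (28.6%) were lower, against 32.0%. In the wild type, 8 (11.4%) were higher in nuclei, against 15.9% of all genes, and 18 (25.7%) were lower, against 19.4%. The shares were near the background in *daf-2(e1370)*. In the wild type the share higher was below it and the share lower above it. The split of calls moved with the scaling: under median-of-ratios scaling it was 18 higher and 16 lower in *daf-2(e1370)* and 11 higher and 14 lower in the wild type, and under quantile scaling 17 and 14 in *daf-2(e1370)* and 10 and 17 in the wild type. Of all genes, median-of-ratios scaling gave 23.9% higher and 28.2% lower in *daf-2(e1370)* and 17.9% higher and 16.5% lower in the wild type, and quantile scaling 24.9% and 25.4% in *daf-2(e1370)* and 19.5% and 18.8% in the wild type. Median-of-ratios scaling moved the median of all genes from -0.63 to -0.41 in *daf-2(e1370)* and from -0.34 to -0.18 in the wild type. The number lower was 12 without *daf-2(e1370)* worm replicate 1, when 27.1% of all genes were lower, and in the wild type it was 9 without worm replicate 2, when 11.6% of all genes were.

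The genotypes, which share no library, were set side by side. All 8 that were higher in wild-type nuclei were also higher in *daf-2(e1370)* nuclei, where they made up 53.3% of those higher, and 11 were lower in both (55.0% of those in *daf-2(e1370)* and 61.1% of those in the wild type). No member was called in opposite directions. Of the 70, 64 had the same sign of the log2 fold change. These counts were not made over all genes, so they show nothing particular to the members. Across the members, the log2 fold changes of both genotypes had a Pearson correlation of 0.87 and a Spearman correlation of 0.91, beside 0.80 and 0.80 across 12728 protein-coding genes tested. The points share the preparation methods, and no p is given.

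**Figure D3:**
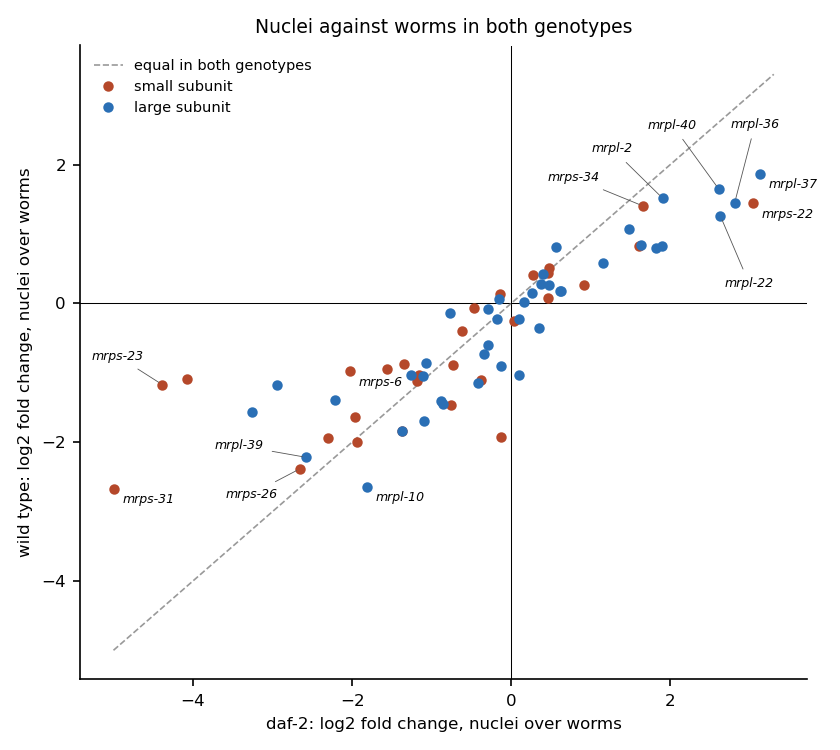
log2 fold change of nuclei over worms for each of the 70 members in *daf-2(e1370)* (horizontal axis) and in the wild type (vertical axis); the dashed line marks equal values. *mrpl-37*, *mrps-22*, *mrpl-36*, *mrpl-40* and *mrpl-22* lie at the upper right and *mrps-31* at the lower left, with 64 of 70 on the same side of 0 in both genotypes.

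Among the members higher in nuclei, *mrpl-37* (chromosome II, 13568077 to 13575068) had the largest log2 fold change in either genotype. It had 49.9, 56.8 and 52.8 CPM in *daf-2(e1370)* nuclei against the 5.66 to 6.78 CPM of *daf-2(e1370)* worms given above. In wild-type nuclei it had 55.8, 45.6 and 30.6 CPM against 9.91 to 15.3 CPM in wild-type worms. The log2 fold change was 3.12 ± 0.29 in *daf-2(e1370)* and 1.87 ± 0.29 in the wild type (adjusted p = 1.51e-06 and 0.000294, limma), and nuclei and worms did not overlap.

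*mrps-22* had 994, 714 and 717 CPM in *daf-2(e1370)* nuclei and 778, 646 and 445 CPM in wild-type nuclei, all above its worm libraries. Its log2 fold change was 3.04 ± 0.36 in *daf-2(e1370)* (adjusted p = 1.11e-05, limma) and 1.45 ± 0.36 in the wild type (adjusted p = 0.00629, limma). The call in the wild type was lost under quantile scaling, where it was 0.39 with an adjusted p of 0.402. Its upstream neighbor on the same strand, *dap-3*, did not share this pattern: it had 45.1, 37.7 and 30.8 CPM in *daf-2(e1370)* nuclei against 54.7, 39.8 and 36 CPM in *daf-2(e1370)* worms (log2 fold change -0.19 ± 0.26, adjusted p = 0.553, limma), and 28.7, 21.8 and 34.1 CPM in wild-type nuclei against 49.1, 50.0 and 38.8 CPM in wild-type worms (-0.72 ± 0.26, adjusted p = 0.046).

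*mrpl-40* had 96.6, 86.1 and 65.2 CPM in *daf-2(e1370)* nuclei against 14.3, 13.6 and 12.3 CPM in *daf-2(e1370)* worms, and 56.2, 56.5 and 48.5 CPM in wild-type nuclei against 21.0, 13.4 and 17.9 CPM in wild-type worms. No nuclei library overlapped a worm library (log2 fold change 2.61 ± 0.25 in *daf-2(e1370)* and 1.65 ± 0.25 in the wild type). *mrpl-2*, whose bacterial counterpart lies near the site where peptide bonds form, had 65.5, 51.5 and 56.5 CPM in *daf-2(e1370)* nuclei against 15.4, 15.8 and 15 CPM in *daf-2(e1370)* worms (log2 fold change 1.90 ± 0.24). In the wild type it had 56.0, 41.1 and 57.8 CPM in nuclei against 17.3, 15.4 and 21.4 CPM in worms (log2 fold change 1.51 ± 0.24). The bacterial counterpart of *mrpl-22* lines the peptide tunnel. *mrpl-36* and *mrpl-22* had log2 fold changes of 2.81 ± 0.43 and 2.63 ± 0.33 in *daf-2(e1370)* and of 1.45 ± 0.43 and 1.25 ± 0.33 in the wild type. *mrps-34*, a small-subunit gene, had log2 fold changes of 1.66 ± 0.29 in *daf-2(e1370)* and 1.40 ± 0.29 in the wild type. *mrpl-36* was no longer called in the wild type without nuclei replicate 1 (adjusted p = 0.0726, limma) or worm replicate 2 (adjusted p = 0.0844, limma).

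Among the members lower in nuclei, *mrps-26* (chromosome III, 5234612 to 5236364), a small-subunit gene, had 6.20, 4.79 and 5.40 CPM in *daf-2(e1370)* nuclei against 44.7, 31.2 and 28.6 CPM in *daf-2(e1370)* worms. It had 10.5, 4.67 and 3.32 CPM in wild-type nuclei against 23.9, 39.9 and 24.3 CPM in wild-type worms. The groups did not overlap in either genotype, at log2 fold changes of -2.65 ± 0.41 in *daf-2(e1370)* and -2.38 ± 0.41 in the wild type (adjusted p = 0.000135 and 0.000652, limma). *mrpl-10*, which anchors the stalk that recruits translation factors, had 10.9, 6.82 and 4.61 CPM in *daf-2(e1370)* nuclei against 32.9, 21.2 and 21.2 CPM in *daf-2(e1370)* worms, and 2.97, 1.74 and 5.42 CPM in wild-type nuclei against 19.8, 23.9 and 14.5 CPM in wild-type worms. Its log2 fold change was -1.81 ± 0.46 in *daf-2(e1370)* and -2.64 ± 0.46 in the wild type.

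*mrpl-39*, *mrps-7*, *mrpl-18* and *mrps-25* were also lower in nuclei of both genotypes, with log2 fold changes of -2.57, -2.30, -1.37 and -1.38 in *daf-2(e1370)* and of -2.22, -1.95, -1.84 and -1.83 in the wild type. Without wild-type worm replicate 2, the wild-type adjusted p was 0.0527 for *mrpl-39* and 0.0761 for *mrpl-18* (limma), and without wild-type nuclei replicate 2 it was 0.0748 for *mrpl-18*. *mrps-6* was lower in nuclei, at a log2 fold change of -2.03 ± 0.35 in *daf-2(e1370)* (adjusted p = 0.000272, limma) and of -0.98 ± 0.35 in the wild type (adjusted p = 0.0414, limma). The wild-type call of *mrps-6* was lost with libraries of equal number as pairs (a replicate block of pairs, adjusted p = 0.0524), under both other scalings (0.0841 and 0.11), and in 5 of the 6 fits that left out 1 compared library (0.0521 to 0.142). *mrps-5* was not called in either genotype, at 0.27 ± 0.25 in *daf-2(e1370)* (adjusted p = 0.372, limma) and 0.41 ± 0.25 in the wild type (adjusted p = 0.221, limma).

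Several of the lowest log2 fold changes in *daf-2(e1370)* belonged to members close to the floor of the nuclei libraries. *mrps-31* had 2.85, 0.0672 and 1.64 CPM in *daf-2(e1370)* nuclei, where 0.0672 CPM is the value of 0 reads, against 24.7, 21.6 and 18.8 CPM in *daf-2(e1370)* worms. *mrps-18B* had 4.25, 4.42 and 0.0672 CPM in *daf-2(e1370)* nuclei against 23.3, 16.3 and 15.7 CPM in *daf-2(e1370)* worms. *mrpl-50* had 4.11, 0.156 and 7.52 CPM in *daf-2(e1370)* nuclei against 17.5, 12.3 and 10.2 CPM in *daf-2(e1370)* worms. *mrpl-42*, which shares most of its exons with its neighbor, had 0.0672, 0.112 and 1.79 CPM in *daf-2(e1370)* nuclei against 3.304, 1.92 and 1.86 CPM in *daf-2(e1370)* worms. In these 4 genes every nuclei library was below every worm library. *mrps-23*, named here after its values were seen, also passed, but its groups overlapped, with 6.89, 0.0672 and 0.146 CPM in *daf-2(e1370)* nuclei against 13.9, 6.58 and 6.74 CPM in *daf-2(e1370)* worms (log2 fold change -4.39 ± 1.27, adjusted p = 0.0103, limma). For *mrps-31*, *mrps-18B*, *mrpl-50* and *mrpl-42*, the fitted log2 fold changes of -4.99 ± 1.11, -4.07 ± 1.14, -2.94 ± 1.03 and -3.26 ± 1.30 rest in part on the value that stands for 0 or few reads. The calls of *mrps-18B*, *mrpl-50* and *mrpl-42* were lost with 2 compared groups in the fit (adjusted p = 0.0713, 0.121 and 0.0717, limma). Of these 4, *mrpl-42* was also lost under both other scalings (0.0663 and 0.12), with no trend in the variance (0.0599), with the replicate number as a block (0.0662) and in 5 of the 6 fits that left out 1 compared library (0.0871 to 0.165), and *mrpl-50* with no trend in the variance (0.0519) and without *daf-2(e1370)* worm replicate 1 (0.0821) or 2 (0.059). In all, 5 values of a member were at 0 reads, each in a nuclei library.

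The subunits differed in level in nuclei. The median over the 29 small-subunit genes was 3.17 to 3.79 log2 CPM in the 6 nuclei libraries, and the median over the 41 large-subunit genes was 4.26 to 4.89 log2 CPM. In the worm libraries beside them, the medians were 4.13 to 4.86 for the small and 3.91 to 4.87 for the large subunit. The small subunit was thus below the large one in 6 of 6 nuclei libraries and in 2 of 6 worm libraries, and in 0 of 12 libraries of the depletion table. The median log2 fold change of nuclei over worms was -0.74 for the small and 0.09 for the large subunit in *daf-2(e1370)*, and -0.95 and -0.14 in the wild type. Members of a subunit are not replicates, and this difference was not tested.

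**Figure D4:**
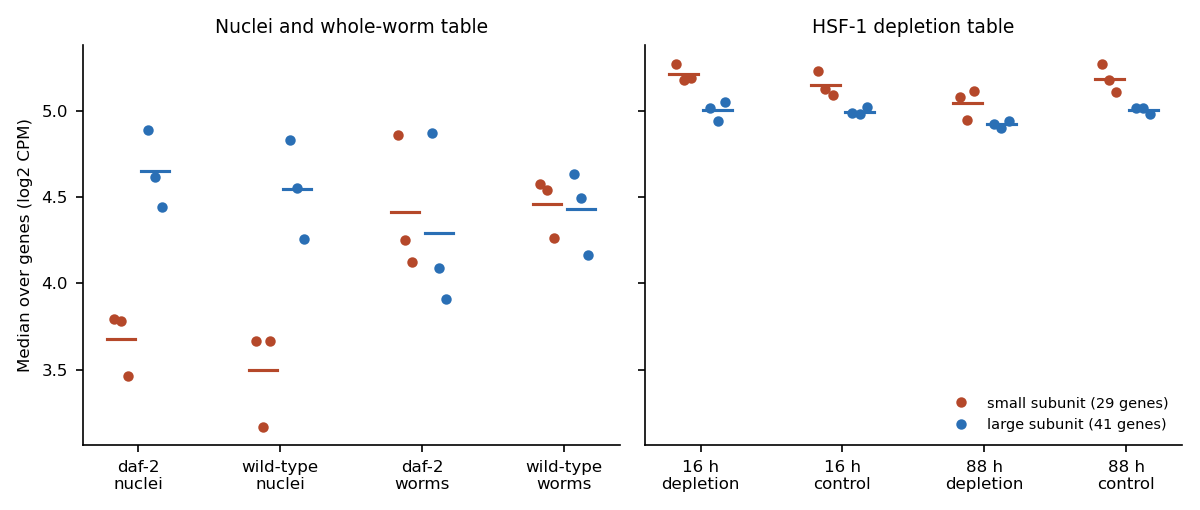
Median log2 CPM over the 29 small-subunit and the 41 large-subunit genes (vertical axis) in every library; points are libraries and lines the means of 3. In all 6 nuclei libraries the small-subunit medians, at 3.17 to 3.79, lie below the large-subunit medians, at 4.26 to 4.89, whereas the medians lie close together in worms.

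Gene structure was set beside these ratios. The part of a member's gene span that lies in introns had a median of 26.4% over the members (24.2% in the small and 28.8% in the large subunit), against 39.2% over the protein-coding genes tested. Among the 23 members with the largest intronic part (39.8% to 86.8%), 9 were higher and 2 lower in *daf-2(e1370)* nuclei, and 4 were higher and 3 lower in wild-type nuclei, with medians of 0.37 in *daf-2(e1370)* and 0.18 in the wild type. Among the 23 with the smallest (0% to 18.7%), 4 were higher and 7 lower in *daf-2(e1370)* nuclei and 2 were higher and 7 lower in wild-type nuclei, with medians of -0.61 and -1.03. Of all 6397 protein-coding genes tested with an intronic part above the middle band, 1381 were higher and 1839 lower in *daf-2(e1370)* nuclei (median -0.47) and 994 were higher and 971 lower in wild-type nuclei (median -0.21). Of the 2762 below it, 436 were higher and 1113 lower in *daf-2(e1370)* nuclei (median -1.005) and 293 were higher and 817 lower in wild-type nuclei (median -0.75). In the middle 24 members, the medians were -0.94 in *daf-2(e1370)* and -1.003 in the wild type. Across the 70 members, the intronic part and the log2 fold change had a Pearson correlation of 0.39 and a Spearman correlation of 0.32 in *daf-2(e1370)*, and of 0.42 and 0.37 in the wild type. Across all 12728 protein-coding genes the same values were 0.11 and 0.12 in *daf-2(e1370)*, and 0.13 and 0.13 in the wild type. *mrps-22*, with 11.7% of its span in introns, stood apart from this, as did *mrps-35* with 70.2% and log2 fold changes of -0.76 and -1.46. The members with exons overlapping another gene had medians of -0.94 in *daf-2(e1370)* and -0.91 in the wild type, and the 50 without such overlap -0.13 and -0.16. The 27 members close behind a gene on the same strand had medians of 0.10 in *daf-2(e1370)* and 0.01 in the wild type, and the other 43 -0.38 and -0.87. With exonic length, the Pearson correlation over the members was -0.07 in *daf-2(e1370)* and -0.05 in the wild type. Genes share the libraries and are not independent, and no p is given.

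**Figure D5:**
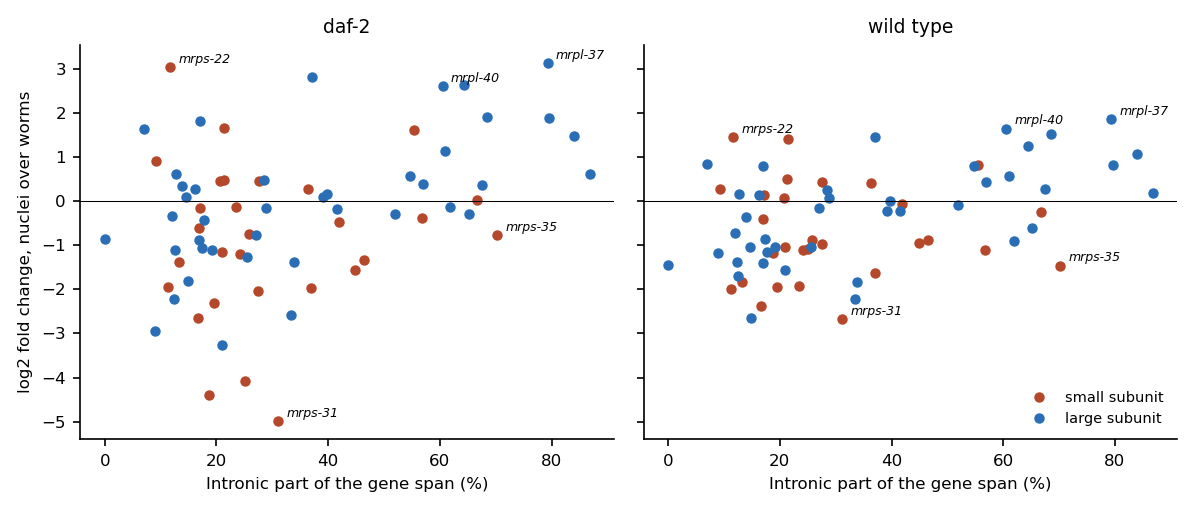
Percent of the gene span in introns (horizontal axis) and log2 fold change of nuclei over worms (vertical axis) for the 70 members, in *daf-2(e1370)* on the left and the wild type on the right. The members above 60% in introns include *mrpl-37* and *mrpl-40* at the top, whereas *mrps-22* is high at 11.7%.

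The list of translation factors and ribosome partners, with its genes of mitochondrial DNA upkeep and transcription, did not move as a block between nuclei and worms either. Of this list, 3 of 12 were higher and 7 lower in nuclei of *daf-2(e1370)*, with a median of -1.43, and 3 and 7 in the wild type, with a median of -1.02. *rpom-1*, the mitochondrial RNA polymerase, was among the higher ones (log2 fold change 2.19 ± 0.24 in *daf-2(e1370)* and 1.57 ± 0.24 in the wild type). *hmg-5*, which packages mitochondrial DNA, was lower in *daf-2(e1370)* (-2.97 ± 0.38), as was *tufm-1*, a mitochondrial elongation factor (-2.13 ± 0.29). *mtss-1*, which binds single-stranded mitochondrial DNA, was lower in the wild type (-3.35 ± 0.46). The aminoacyl-tRNA synthetases had 3 higher and 5 lower of 10 in *daf-2(e1370)*, and 3 higher and 2 lower in the wild type, *lars-2* being higher in both (2.98 ± 0.29 and 1.79 ± 0.29). For both lists the shares over all genes were 21.3% higher and 32.0% lower in *daf-2(e1370)*, and 15.9% and 19.4% in the wild type.

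Of the transcripts of the mitochondrial genome, those that passed were higher in nuclei, 10 of 14 in *daf-2(e1370)* with a median of 2.01 and 5 of 14 in the wild type with a median of 0.99, and none was lower. The s-rRNA had 2039, 1656 and 2703 CPM in *daf-2(e1370)* nuclei against the 87.8 to 147 CPM of *daf-2(e1370)* worms (log2 fold change 4.32 ± 0.36), and the l-rRNA had a log2 fold change of 3.45 ± 0.29. These are transcripts of the organelle and not of the nucleus, and their part in the member results was not tested. Of the 82 cytosolic ribosomal protein genes, 45 were lower and 4 higher in nuclei in *daf-2(e1370)*, where 32.0% of all genes were lower, and 36 were lower and 2 higher in the wild type, where 19.4% were, *rps-8* falling by 3.78 and by 2.56 on the log2 scale. Of the 35 nuclear respiratory chain genes, 11 were higher and 11 lower in *daf-2(e1370)* nuclei, and 7 and 9 in wild-type nuclei. Of all genes, 21.3% were higher and 32.0% lower in *daf-2(e1370)* nuclei, and 15.9% and 19.4% in wild-type nuclei. The mitochondrial unfolded protein response list had 5 higher and 4 lower of 14 in *daf-2(e1370)*, and 2 higher and 3 lower in the wild type; *spg-7* was higher in nuclei (4.57 ± 0.30 in *daf-2(e1370)* and 2.79 ± 0.30 in the wild type), and the chaperone gene *hsp-6* was lower (-3.01 ± 0.26 and -2.32 ± 0.26).

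The depletion table asks what germline loss of HSF-1 does to the RNA of whole *daf-2(e1370)* animals. Every depletion library was on auxin and every control on ethanol, so effects of auxin itself and of HSF-1 loss cannot be told apart. The study removed genes that respond to auxin with a list from its earlier work, and that list was not applied here. Nuclear-encoded rRNA took 4.6% to 6.1% of the summed CPM after 16 h of depletion and 1.7% to 4.4% in the 16 h controls, without overlap. At 88 h it took 5.4% to 8.1% under depletion and 4.5% to 5.5% in controls, with overlap. The part of this in the depletion results was not tested. Here the members were steady. The highest group mean of a member was at most 1.41 times its lowest over the 4 groups, with a median of 1.15, and all 70 stayed under 1.5-fold. Of all 12634 genes tested, 67.9% stayed under 1.5-fold, although these were not matched to the members in level. The median SD of a member over 3 libraries was 0.08 to 0.10 on the log2 scale, against 0.16 to 0.19 for all genes. In the nuclei and worm table the same SD was 0.31 to 0.44 for the members and 0.36 to 0.68 for all genes, and in *daf-2(e1370)* worms it was larger for the members, at 0.44 against 0.36.

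After 16 h of depletion, no member passed the threshold, whereas 0.0792% of all genes did. An unadjusted p under 0.05 (limma) was reached by 1 of 70 members and by 560 of all 12634 genes. The median log2 fold change was 0.06, with 48 of 70 above 0, beside 0.01 over all genes. In 5 members all depletion libraries lay above all controls, which 7.02% of all genes also did. *mrps-10* had the smallest p, with 32.7, 31.6 and 34.5 CPM under depletion against 37.5, 37.5 and 39.2 CPM in controls. These groups did not overlap (log2 fold change -0.21 ± 0.08, adjusted p = 1.0, limma). *mrps-31* had 38.6, 34.7 and 33.0 CPM under depletion against 29.5, 32.1 and 33.0 CPM in controls, with groups that overlapped (0.17 ± 0.08, adjusted p = 1.0).

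After 88 h of depletion, again no member passed, with 0.103% of all genes past. An unadjusted p under 0.05 (limma) was reached by 5 of 70 members and by 752 of all 12634 genes. The median log2 fold change was -0.12, and 57 of 70 members (81.4%) were below 0, beside a median of -0.02 and 55.1% of all genes. In 14 members (20.0%) all depletion libraries lay below all controls, against 5.49% of all genes, a difference that was not tested. Of the 14 members, 11 belonged to the large and 3 to the small subunit.

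*mrps-25*, a small-subunit gene, had 25.3, 23.7 and 27.7 CPM after 88 h of depletion against 32.0, 32.2 and 32.4 CPM in the 88 h controls. The groups did not overlap, and the log2 fold change was -0.33 ± 0.09 (adjusted p = 0.459, limma). *mrpl-17*, a large-subunit gene, had 19.4, 15.6 and 18.2 CPM under depletion against 24.3, 23.7 and 21.1 CPM in controls (log2 fold change -0.38 ± 0.11, adjusted p = 0.612, limma), again without overlap. *mrps-5* had 67.7, 67.7 and 66.7 CPM under depletion against 70.7, 71.0 and 66.0 CPM in controls, and *mrps-6* had 35.8, 30.2 and 34.5 CPM under depletion against 35.1, 33.2 and 31.4 CPM in controls. Both overlapped, at log2 fold changes of -0.04 ± 0.06 and 0.01 ± 0.10 (adjusted p = 0.992 and 0.995, limma).

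No gene list of mitochondrial translation had a call at 88 h, and the lists leaned in different directions. Of the cytosolic ribosomal protein genes 0 of 82 were above 0 (median -0.31), and of the nuclear respiratory chain genes 3 of 35 (median -0.12). In contrast, the transcripts of the mitochondrial genome were above 0 in 14 of 14 (median 0.23), and the aminoacyl-tRNA synthetases in 8 of 10 (median 0.11). The translation factors and partners had a median of -0.02 and the unfolded protein response list one of -0.06. At 16 h, none of the 6 lists had a call, and the medians lay between -0.06 for the cytosolic ribosomal proteins and 0.10 for the transcripts of the mitochondrial genome. The germline genes summed to 4040 to 4804 CPM after 88 h of depletion against 4465 to 4872 CPM in controls, and the body wall muscle genes to 3146 to 6536 CPM against 4173 to 6135 CPM, so that both sums overlapped.

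The difference between the depletion effects at 88 h and at 16 h was below 0 in 63 of 70 members, with a median of -0.15 beside -0.02 over all genes. None passed the test of the difference, and neither did any of the 12634 genes (0.0%), with 2 members and 241 genes at an unadjusted p under 0.05 (limma). *mrps-25* had a difference of -0.43 ± 0.12 and *mrpl-17* one of -0.41 ± 0.15 (adjusted p = 1.0 for both, limma). Across the members, the effects at both times had a Pearson correlation of 0.32, beside 0.27 across all genes tested, with no p given.

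Between the controls, which differ both in the time on ethanol plates and in the stage at which it began, 1 of 70 members was higher at 88 h, whereas 7.61% of all genes (961) were. The number over all genes was 0 without 16 h control replicate 2 or 3, with 3040 and 3342 genes at an unadjusted p under 0.05 (limma), and 0 with 2 compared groups in the fit, with 3365. It was 37 without 88 h control replicate 1 and 230 without replicate 3, 580 without replicate 2, and 1934 without 16 h control replicate 1. The member was *mrpl-2*, with 37.8, 35.7 and 37.1 CPM in 88 h controls against 30.4, 27.6 and 30.0 CPM in 16 h controls. The groups did not overlap, at a log2 fold change of 0.33 ± 0.09 (adjusted p = 0.0496, limma). Its call was lost in 5 of the 6 fits that left out 1 compared library (adjusted p 0.0658 to 0.16), all but that without 16 h control replicate 1. *mrps-25*, whose 88 h controls also serve in the comparison above, had a log2 fold change of 0.15 ± 0.09 here (adjusted p = 0.239, limma). The median of the members was -0.03, with 30 of 70 above 0. The body wall muscle sum was 4173 to 6135 CPM in 88 h controls against 2299 to 2468 CPM in 16 h controls, and the sum of the 12 sperm genes in the table was 610 to 1220 CPM against 56.1 to 357 CPM. The hypodermis and cuticle sum was 13964 to 16619 CPM in 88 h controls against 9956 to 12125 CPM in 16 h controls. The part of these in the result was not tested. In the nuclear respiratory chain list, 3 of 35 were higher in the 88 h controls and 34 of 35 lay above 0 (median 0.23), *asb-2*, an ATP synthase gene, having 279, 239 and 215 CPM in 88 h controls against 166, 157 and 171 CPM in 16 h controls. In the list that holds the translation factors and partners, 1 gene was lower, *hmg-5* (-0.34 ± 0.07, adjusted p = 0.0297, limma). In the unfolded protein response list 1 was higher, *hsp-6* (0.30 ± 0.08, adjusted p = 0.0463, limma). The cytosolic ribosomal protein genes had no call, with 78 of 82 above 0 (median 0.15), and the aminoacyl-tRNA synthetases and the transcripts of the mitochondrial genome had medians of -0.14 and -0.20, also with no call. The calls of these lists were likewise lost without 16 h control replicate 2 or 3, where no gene passed.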

How the data were processed

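Whole-animal RNA and RNA of enriched germline nuclei were polyA-enriched and sequenced from directional libraries. The authors aligned reads with STAR to WBcel235 (ce11), counted them per gene with featureCounts, with multi-mapped and overlapping reads shared as fractions, removed genes of low expression and deposited log2 CPM values made with edgeR. The deposited tables of the authors' own comparisons (fold changes and p-values) were not used. All 24 value columns were used as deposited. A gene entered the tests if 25% or more of a table's libraries had 1 CPM or more: 13613 of 14206 in the nuclei and worm table and 12634 of 12958 in the depletion table. Tests were two-sided moderated tests from limma 3.58.1 (R 4.3.3; eBayes allowing a variance trend), which were checked on simulated data. P-values were adjusted by Benjamini-Hochberg across the whole table, with 0.05 as the threshold. The comparisons of *daf-2(e1370)* with the wild type used the 6 libraries compared, the others all 12 of a table. Errors of log2 fold changes are SE. Alternatives changed the scaling, the filter, the pseudocount, the variance trend, the libraries in the fit and the replicate block, and left out each library in turn.

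Gene positions came from Ensembl release 115 (WBcel235, the same build), and names were matched by gene ID. Levels per kilobase used the union of a gene's exons. Named members were *mrps-6* and *mrps-5*, the up to 6 largest and 6 smallest log2 fold changes among members that passed without overlap of their groups, those past against the majority, the 2 of smallest p where none was past, the highest and lowest by level in each subunit, and up to 3 genes of each list. *mrps-22* in worms and *mrps-23* in nuclei passed with overlapping groups and were named outside the part of the rule on fold changes. The members and lists were chosen with earlier results of these data known. The study calls the columns of its RNA-seq heatmaps biological replicates, and p-values cover the spread seen between these libraries. The study saved both enriched nuclei and whole worm lysate from its nuclei preparations for sequencing. Same-numbered libraries deviated together in wild-type nuclei and worms (correlations of 0.113 to 0.138) and, more weakly, in *daf-2(e1370)* nuclei and worms (0.0729 to 0.0966). In depletion and control groups the correlations were 0.121 to 0.624 at 16 h and 0.274 to 0.664 at 88 h. Some libraries of unequal number in these groups also deviated together, with correlations up to 0.182 at 16 h and 0.421 at 88 h. The reported tests did not use pairs, which entered only as an alternative fit.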

Additional observations from a re-analysis of the deposited data

How the results depend on the processing

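The count of members lower in *daf-2(e1370)* worms, 1 as reported, was 0 under quantile scaling, with log2(CPM + 1), with no trend in the variance and with all 12 libraries in the fit, and 2 with a filter of 1 CPM in every library. With the replicate number as a block it was 6, with 1 member higher. Leaving out 1 library gave 0 to 4 lower and 0 to 1 higher. Whether the numbers pair the worm libraries of the genotypes is not settled. Same-numbered worm libraries had correlations of -0.0937 to 0.229, and those of unequal number -0.298 to 0.333. The summed level of the members fell from replicate 1 to 2 to 3 in every group of the nuclei and worm table. The part of this in the count was not tested. In *daf-2(e1370)* nuclei, 1 member was lower with all 12 libraries in the fit. For the difference between nuclei and worms, 1 member (*mrps-22*, adjusted p = 0.0447) was higher with the replicate block, and leaving out 1 library gave 0 to 1 lower. Between the controls, the 1 member higher became 0 under median-of-ratios and quantile scaling, with a filter of 1 CPM in every library, with no trend in the variance and with 2 compared groups in the fit, quantile scaling gave 2 lower and a median of the members of -0.09, and leaving out 1 library gave 0 to 1 higher. Pairs within a duration could not be fitted for this comparison, since they are confounded with it. In nuclei against worms, leaving out 1 library gave 12 to 20 lower in *daf-2(e1370)* and 9 to 20 lower in the wild type. The other 254 of 284 counts under an alternative stayed within 1.5 times the reported one, and the paired fits changed no call named in the report other than that of *mrps-6* in the wild type. The causes of these changes were not tested. No member named for a comparison changed direction past the threshold. Quantile scaling moved the median of all genes from -0.15 to 0.04 in *daf-2(e1370)* against wild-type nuclei and from 0.03 to -0.12 between the controls. Over all genes, the calls were 34.9% higher in *daf-2(e1370)* nuclei as deposited and 48.9% under median-of-ratios scaling, 21.4% and 61.5% (quantile scaling) for the difference between nuclei and worms, and 76.9% higher between the controls as deposited and 49.3% under quantile scaling. In nuclei, 1 read is worth up to 0.157 CPM, and 5 values of a member were at 0 reads. With the replicate block, the calls over all genes in *daf-2(e1370)* against wild-type nuclei became 0, with 2841 genes at an unadjusted p under 0.05 (limma), and with all 12 libraries in the fit 632 genes were lower in *daf-2(e1370)* worms, against 1526 as reported.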
